A study of Mus musculus with 18 samples.

Results

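Matrix proteases and their inhibitors were followed through the conversion of 3T3-L1 cells into fat cells. The genes were taken by name: every listed Mmp, Adamts, Adamtsl and Timp gene, which gave 51 of 25209 names. They comprise 23 matrix metalloproteinases (MMPs), 19 ADAMTS proteases, 5 ADAMTS-like proteins and 4 tissue inhibitors of metalloproteinases (TIMPs). A level of 1 TPM was reached in 3 or more of the 18 libraries by 28 of the 51 genes, which entered the tests. TPM is a transcript level corrected for transcript length and scaled to a common total within a library. The 28 comprise 10 MMPs, 11 ADAMTS proteases, 3 ADAMTS-like proteins and 4 TIMPs.

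3T3-L1 is a mouse fibroblast line of preadipocytes, the 1 line used here, and polyadenylated RNA was sequenced in 3 libraries of each of 6 groups. The groups are Control, the 2 clonal expansion stages MCE1 and MCE2, and Day4, Day6 and Day8, counted in days from the differentiation stimuli. Per the labels' protocols, the stimuli began 2 days after confluence and consisted of 10 µg/mL insulin, 0.25 µM dexamethasone and 0.5 mM IBMX over 48 h. Medium with 5 µg/mL insulin followed and was renewed every 2 days. Dexamethasone is a synthetic glucocorticoid, and IBMX blocks phosphodiesterases and so raises cAMP. MCE is read from the study's title as mitotic clonal expansion, the rounds of division that induced cells pass through before they fill with fat. Neither the hours at which MCE1 and MCE2 were taken nor any agent given to Control are in the labels. Separate cultures per replicate are not stated either, and p-values therefore reflect the spread between these libraries, which may be technical.

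Fat cell formation is described as replacing the fibronectin- and collagen I-rich surroundings of a fibroblast by a basement membrane. Secreted and membrane-bound proteases take part in that change. In these libraries Fn1 RNA averaged lower in Day8 than in Control, but Col1a1 RNA averaged higher. MMPs are zinc enzymes, most of them released as inactive proenzymes, that cut collagens, gelatin, fibronectin and cell surface proteins. ADAMTS proteases carry thrombospondin repeats and cut proteoglycans such as versican and aggrecan, or trim the N-terminal propeptides of procollagens. TIMPs bind the active site of MMPs and, in the case of TIMP3, also of several ADAM and ADAMTS proteases.

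The summed TPM of 10 fat cell markers was 165 to 181 in Control, 3892 to 4242 in MCE2 and 27397 to 30152 in Day8, and the labelled cell type had its defining markers. The 10 preadipocyte and fibroblast markers, of which 8 passed the filter, summed to 3609 to 3806, 2200.1 to 2274 and 6827 to 9996 TPM in the same 3 groups. In Day8 most of that sum was collagen transcripts: Col1a1 and Col3a1 averaged 2681 and 4831 TPM in Day8, against 1235 and 453 in Control. Acta2 averaged 15.6 TPM in Day8 against 996 in Control, Fn1 219 against 521, Thy1 131 against 302 and Pdgfrb 47.6 against 87.1, so these members stood lower in Day8. Besides the collagens, Pdgfra (105 against 65.4 TPM) and Dlk1 (27.7 against 22.6 TPM) had higher means in Day8 than in Control. Dlk1 spanned 0 to 50.15 TPM over all libraries, and Cd34 and Postn did not pass the filter. Macrophages also make many MMPs, so their markers are given here: 5 of the 13 listed passed the filter, the sum was 18.5 to 21.0 TPM in Control, 6.21 to 7.76 in MCE2 and 10.8 to 11.9 in Day8, and Adgre1, Ptprc, Itgam and Tyrobp stood at 0 in every library. Of 9 neutrophil markers, 3 passed, with a sum of 0 to 0.297 TPM in Control, 62.3 to 65.3 in MCE1 and 32.0 to 47.1 in Day8, while S100a9, Mpo, Ltf and Csf3r were at 0 throughout. None of 10 endothelial markers passed (sum 0.0946 to 1.93 TPM over all libraries, Emcn, Erg and Tie1 at 0), and the sum of 8 epithelial markers, 5 of which passed, was 22.3 to 27.7 TPM in Day8, against 0 to 1.04 in Control. The part of these lists in the results below was not tested.

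In MCE1 the ADAMTS proteases Adamts1, Adamts2, Adamts9 and Adamts12 rose 5.69- to 9.50-fold over Control, and Adamts15 had 17.3 to 17.6 TPM in MCE1, against less than 0.3 TPM in Control. In the same stage Timp1, Timp2, Timp3, Mmp9, Mmp11, Mmp13, Mmp14, Mmp23, Adamts6, Adamts7 and Adamts10 fell, while Timp4, Mmp27 and Mmp2, the most abundant MMP there at 3.72-fold the Control level, rose. The calls of Mmp9 (-0.19), Adamts6 (-0.41) and Adamts10 (-0.34) in MCE1 were lost under quantile normalization. Of the 10 MMPs, 8 rose and 2 were not called in Day4 versus MCE2, a comparison in which 29.6% of all genes were higher and 22.0% lower, and Mmp2 and Mmp14 were the highest MMP transcripts in every group. In all 5 comparisons with Control, Timp4 rose and Timp1, Timp2, Timp3 and Mmp23 fell. In bulk RNA, fewer cells of a type and less RNA per cell cannot be told apart.

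With limma on log2(TPM + 1) and p-values adjusted over all 12695 genes tested, 25 of the 28 genes differed among the 6 groups (89.29%), a share near the 87.6% of all genes. Mmp19, Adamts10 and Mmp28 were not called by this F test, with adjusted p = 0.0608, 0.0764 and 0.542. In MCE1 versus Control, 11 genes were higher and 12 lower, against 22.0% and 29.4% of all genes (51.4% in either direction). In MCE2 versus Control the counts were 11 higher and 13 lower, against 23.4% and 39.1% (62.5% in all). Day4 versus Control had 16 higher and 8 lower, against 29.7% and 39.3% of all genes (69.0% in all). Day6 versus Control had 17 higher and 6 lower, against 30.2% and 39.4% (69.7% in all). Day8 versus Control had 17 higher and 4 lower, against 31.7% and 39.7% (71.4% in all). These 5 comparisons share the Control libraries and are not independent of each other.

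Between neighbouring stages, MCE2 versus MCE1 had 7 higher and 10 lower, against 17.7% and 25.2% of all genes (42.8% in all). Day4 versus MCE2 had 15 higher and 1 lower, against 29.6% and 22.0% (51.6% in all). Day6 versus Day4 had 7 higher and 8 lower, against 14.5% and 11.2% (25.7% in all), and Day8 versus Day6 had 5 higher and 7 lower, against 10.1% and 11.6% (21.7% in all). The median log2 fold change of the 28 genes in Day8 versus Control was 0.75, against -0.11 for all genes tested. In MCE1 versus Control it was -0.09, against -0.06. Of the 28 genes, 21 were at or above 1 TPM in all 18 libraries. The other 7 (Timp3, Timp4, Mmp13, Mmp27, Adamts6, Adamts15 and Adamtsl2) were under 1 TPM in at least 1 library and passed the filter through the groups in which they are high, so the counts describe the 28 genes and support nothing about all 51.

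**Figure D1:**
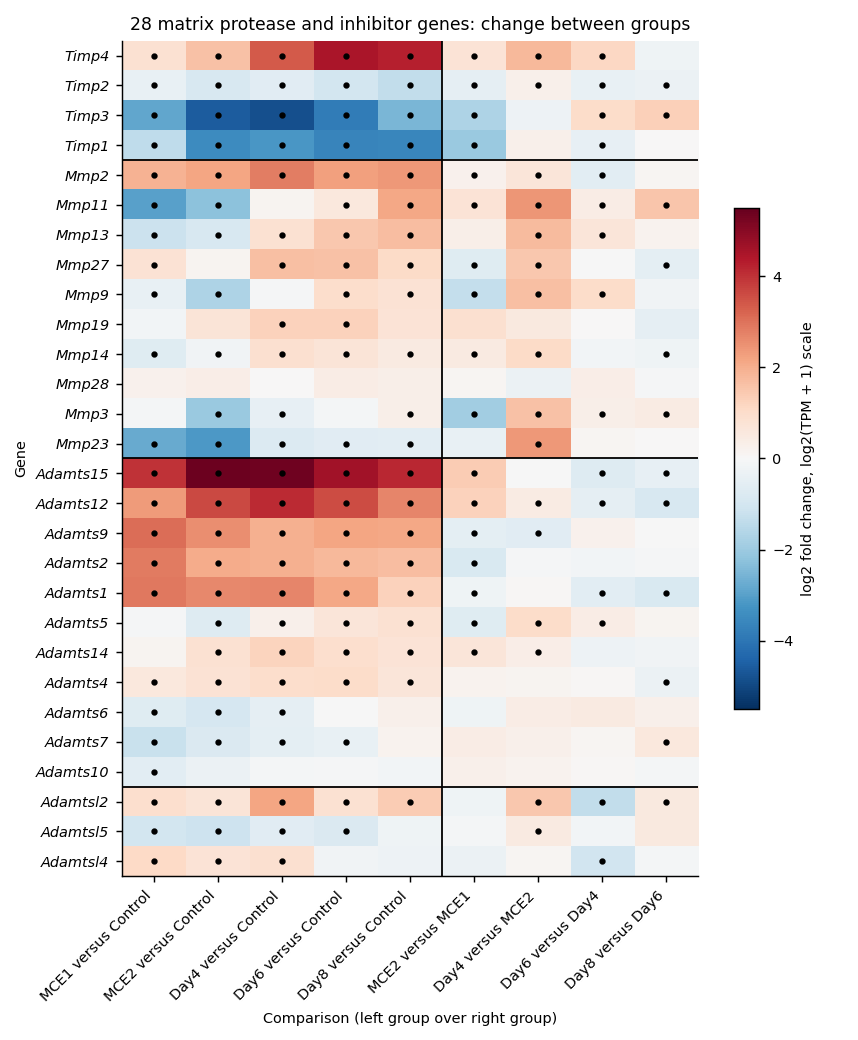
Log2 fold change on the log2(TPM + 1) scale of the 28 genes (vertical, by family) in the 9 comparisons (horizontal, left group over right group), where red is higher, blue is lower and a dot marks a limma adjusted p under 0.05. Adamts1, Adamts2, Adamts4, Adamts9, Adamts12, Adamts15, Adamtsl2, Mmp2 and Timp4 are red with a dot in every comparison with Control, Timp1, Timp2, Timp3 and Mmp23 are blue with a dot in every one, and 15 of the 16 dots in the Day4 versus MCE2 column are red.

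The 4 inhibitors did not move as a block. Timp1 (chromosome X, 20447292 to 20451863, mm9), a secreted inhibitor of most soluble MMPs that acts poorly on MMP14, had 579, 592 and 524 TPM in Control, 212, 210.3 and 216 in MCE1, 46.0, 57.5 and 47.9 in MCE2, 63.8, 49.6 and 71.8 in Day4, 51.4, 37.5 and 47.2 in Day6, and 43.9, 45.03 and 48.9 in Day8. Every Control library lay above every MCE1 library, every MCE1 library lay above all later ones, and from MCE2 to Day8 each group overlapped the next. In MCE1 it averaged 213 ± 2.95 TPM, against 565 ± 36.5 TPM in Control (SD, n = 3 each; log2 fold change -1.40 ± 0.13 SE, limma adjusted p = 1.26e-07). In Day8 it averaged 46.0 ± 2.63 TPM, against 565 ± 36.5 TPM in Control (log2 fold change -3.59 ± 0.13 SE, limma adjusted p = 4.45e-13), 12.3-fold lower. The next step, MCE2 versus MCE1, was a further fall (log2 fold change -2.06 ± 0.13 SE, limma adjusted p = 2.78e-09). The small fall in Day6 versus Day4, -0.43 (limma adjusted p = 0.0198), was not called without Day4 replicate 1 (-0.40), Day4 replicate 3 (-0.32) or Day6 replicate 2 (-0.30). It was also lost on the 6 libraries of that comparison alone (limma adjusted p = 0.115). Day4 versus MCE2 was not called (0.28) but was called without MCE2 replicate 2 (0.37) or Day4 replicate 2 (0.42).

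Timp2 (chromosome 11, 118162375 to 118216725, mm9) encodes the inhibitor that, beside blocking MMPs, bridges pro-MMP2 to MMP14 on the cell surface. It had 545, 549 and 584 TPM in Control, 424, 423 and 428 in MCE1, 319, 309.7 and 279 in MCE2, 364, 357 and 381 in Day4, 260.3, 311 and 265 in Day6, and 228, 231 and 205 in Day8. No group overlapped the one before it, and the highest Day8 library was below the lowest library of every other group. Timp2 fell in all 5 comparisons with Control, least in MCE1 (log2 fold change -0.39 ± 0.07 SE, limma adjusted p = 1.33e-04) and most in Day8 (log2 fold change -1.34 ± 0.07 SE, limma adjusted p = 3.65e-11), where the mean was 2.53-fold lower. It rose once, in Day4 versus MCE2 (log2 fold change 0.28 ± 0.07 SE, limma adjusted p = 0.00268).

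Timp3 (chromosome 10, 85763157 to 85812250, mm9), whose product binds to the matrix and inhibits ADAM17, ADAMTS4 and ADAMTS5 as well as MMPs, had 40.1, 36.4 and 40.8 TPM in Control, 4.04, 4.52 and 5.04 in MCE1, 0.452, 0.939 and 0.695 in MCE2, 0.183, 0.376 and 0.635 in Day4, 2.28, 1.36 and 1.75 in Day6, and 6.27, 5.69 and 5.82 in Day8. Control libraries were all above 36 TPM and no other library reached 7 TPM. The lowest libraries were those of MCE2 and Day4, which overlapped each other, and Day8 lay above both Day6 and MCE1. In MCE2 it averaged 0.695 ± 0.244 TPM, against 39.1 ± 2.35 TPM in Control (SD, n = 3 each; log2 fold change -4.57 ± 0.15 SE, limma adjusted p = 3.22e-13). The later steps went up: Day6 versus Day4 (log2 fold change 1.001 ± 0.15 SE, limma adjusted p = 1.24e-04) and Day8 versus Day6 (log2 fold change 1.32 ± 0.15 SE, limma adjusted p = 1.90e-05) were both called higher. In Day8 Timp3 was still 6.599-fold lower than in Control.

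Timp4 (chromosome 6, 115194464 to 115202223, mm9), an inhibitor known for its narrow tissue range with transcripts in heart and fat, had 0, 0 and 0.128 TPM in Control, 0.783, 0.910 and 0.908 in MCE1, 1.69, 2.16 and 2.80 in MCE2, 9.53, 9.65 and 10.4 in Day4, 24.7, 20.7 and 22.9 in Day6, and 19.8, 19.4 and 17.5 in Day8. It was listed at 0 in 2 Control libraries, so no fold is given, and each group from MCE1 to Day6 lay wholly above the one before. On the log2(TPM + 1) scale the difference was 0.84 ± 0.12 (SE) in MCE1 versus Control and 4.25 ± 0.12 in Day8 versus Control (limma adjusted p = 2.15e-05 and 2.73e-14). The Day8 libraries lay below those of Day6, a difference of -0.26 that was not called (limma adjusted p = 0.147). Timp4 lies inside Syn2, on the opposite strand in the GENCODE M21 annotation. Syn2 had 0.213 to 0.579 TPM in Control, 2.76 to 3.61 in MCE2, 21.4 to 27.9 in Day6 and 7.66 to 12.9 in Day8. Strand use in the counting is not stated and overlap of exons was not examined, so whether Timp4 and Syn2 shared reads is not known. Timp1 and Timp3 are likewise nested in Syn1 and Syn3 on the opposite strand, where Syn1 had 0 to 2.77 TPM and Syn3 0 to 0.352 TPM in any library. Timp2 overlaps Cep295nl on the same strand, which had 0.132 to 2.31 TPM.

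**Figure D2:**
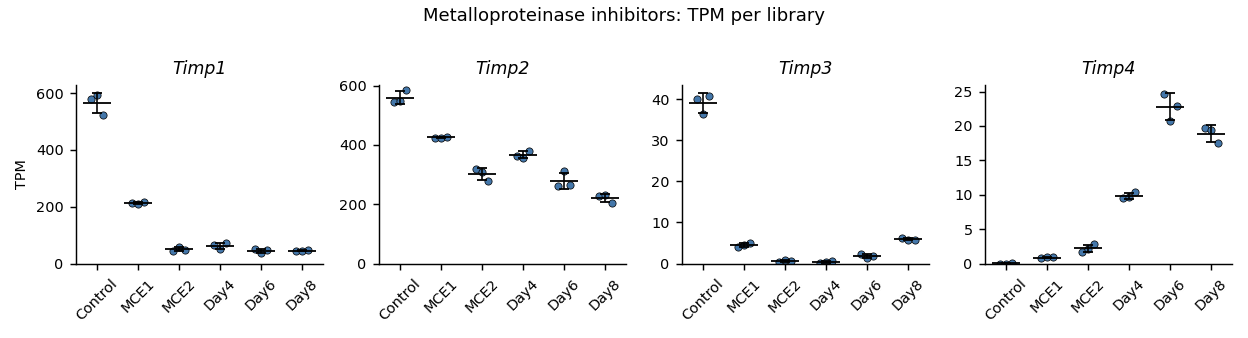
TPM of the 4 TIMP genes in each of 18 libraries (points), by group, with the group mean (wide line) and SD (bars, n = 3); each panel has its own vertical axis from 0. Timp1, Timp2 and Timp3 are highest in Control, and Timp4 is near 0 in Control and highest in Day6.

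The 250 bases upstream of the RefSeq start of Timp1 and Timp3, the inhibitors that fell most, are printed from the RefSeq promoter table (GRCm38.p6), 5′ to 3′ on the gene's strand. Capitals mark motif matches on either strand, so that CCGCCC is GGGCGG read on the other strand. A motif searched was the GC box, spelled GGGCGG and known as a binding sequence of Sp1-type factors. The next was the TATA box, spelled TATAAA. The third, called an AP-1 match here, was TGANTCA, where N is any base. It is looser than the AP-1 consensus, which has C or G at N. A match is a description of the letters, not a bound site.
Timp1 (chrX:20869916-20870165, plus strand): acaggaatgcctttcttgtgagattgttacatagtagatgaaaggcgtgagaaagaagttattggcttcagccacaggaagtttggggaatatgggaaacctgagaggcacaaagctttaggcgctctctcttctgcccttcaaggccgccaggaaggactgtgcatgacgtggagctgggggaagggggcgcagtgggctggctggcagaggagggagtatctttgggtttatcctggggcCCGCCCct
Timp3 (chr10:86300162-86300411, plus strand): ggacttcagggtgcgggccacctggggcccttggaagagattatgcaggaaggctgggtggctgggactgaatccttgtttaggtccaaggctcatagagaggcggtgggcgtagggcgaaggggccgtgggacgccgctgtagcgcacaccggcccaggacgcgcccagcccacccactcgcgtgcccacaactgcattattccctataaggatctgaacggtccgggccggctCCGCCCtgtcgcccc
Each of the Timp1 and Timp3 windows held 1 GC box, and neither held a TATA box or an AP-1 match. GGGCGG was found in 32.7% of the 32851 promoter windows of the same length, and in 20 of the 36 protease and inhibitor genes in the table.

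Among the MMPs, the gelatinase Mmp2 and the membrane-bound Mmp14 made up most of the transcripts. MMP2 (gelatinase A) cuts denatured collagen and basement membrane collagen IV, and is itself activated at the cell surface by MMP14 (MT1-MMP), a collagenase anchored in the membrane. Mmp2 (chromosome 8, 95351196 to 95377320, mm9) had 169.7, 202 and 239 TPM in Control, 738, 761 and 774 in MCE1, 955, 895 and 851 in MCE2, 1426, 1407 and 1473 in Day4, 903, 1032 and 944 in Day6, and 1064, 1077 and 995 in Day8. The lowest MCE1 library was above the highest Control library, Day4 was above every other group, and Day6 and Day8 overlapped. In MCE1 it averaged 758 ± 18.1 TPM, against 204 ± 34.5 TPM in Control (SD, n = 3 each; log2 fold change 1.90 ± 0.09 SE, limma adjusted p = 4.54e-11). In Day4 the level was 7.05-fold that of Control (log2 fold change 2.83 ± 0.09 SE, limma adjusted p = 1.51e-13). Mmp2 then fell in Day6 versus Day4 (log2 fold change -0.58 ± 0.09 SE, limma adjusted p = 1.63e-04). The rise in MCE2 versus MCE1 (0.25, limma adjusted p = 0.0355) was not called under quantile normalization (0.20) or without a filter, or without any of MCE1 replicates 1, 2 or 3 or MCE2 replicates 1 or 2, with values of 0.20 to 0.26.

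Mmp14 (chromosome 14, 55050435 to 55061293, mm9) had 331, 363 and 402 TPM in Control, 226, 223 and 235 in MCE1, 335, 318 and 308 in MCE2, 654, 673 and 659 in Day4, 589.7, 626 and 600.3 in Day6, and 513, 535 and 510.1 in Day8. The MCE1 libraries were the lowest, those of MCE2 overlapped Control, and all Day4, Day6 and Day8 libraries lay above all earlier ones. It fell in MCE1 (log2 fold change -0.67 ± 0.06 SE, limma adjusted p = 5.80e-08) and rose in Day4 (log2 fold change 0.86 ± 0.06 SE, limma adjusted p = 1.44e-09), where the mean was 662 ± 9.65 TPM, against 365 ± 35.9 TPM in Control (SD, n = 3 each). In Day4 the mean was 2.07-fold that of MCE2 (log2 fold change 1.04 ± 0.06 SE, limma adjusted p = 7.05e-10). The MCE2 versus Control value of -0.19 was called, but it was 0.01 with median-ratio scaling of the libraries and -0.11 and not called without Control replicate 3. The call was also lost on the 6 libraries of that comparison alone (limma adjusted p = 0.063). In Day8 Mmp14 was 1.42-fold the Control level (log2 fold change 0.51 ± 0.06 SE, limma adjusted p = 6.72e-07).

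Mmp9 (chromosome 2, 164773719 to 164781350, mm9), gelatinase B, was a minor transcript beside Mmp2. It had 9.04, 10.5 and 11.8 TPM in Control, 8.12, 7.16 and 7.60 in MCE1, 2.80, 2.65 and 2.14 in MCE2, 10.6, 10.2 and 9.18 in Day4, 22.5, 23.6 and 17.8 in Day6, and 21.8, 17.7 and 16.3 in Day8. MCE2 libraries were the lowest, Day4 overlapped Control, and the Day6 and Day8 libraries overlapped each other above every other group. Mmp9 fell in MCE2 versus Control (log2 fold change -1.69 ± 0.13 SE, limma adjusted p = 1.37e-08) and rose in Day6 versus Control (log2 fold change 0.96 ± 0.13 SE, limma adjusted p = 7.47e-06). The fall in MCE1, -0.40 (limma adjusted p = 0.0186), was not called under median-ratio scaling (-0.29), quantile normalization (-0.19), or without Control replicate 3 (-0.32) or MCE1 replicate 2 (-0.36).

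Mmp23 (chromosome 4, 155024764 to 155027493, mm9), a membrane-anchored MMP cut free by proprotein convertases, had 33.8, 33.9 and 38.9 TPM in Control, 5.71, 3.10 and 4.75 in MCE1, 2.76, 2.65 and 4.04 in MCE2, 17.7, 19.9 and 25.3 in Day4, 21.8, 23.2 and 22.9 in Day6, and 21.4, 22.1 and 26.0 in Day8. Its recorded end was 155027399 in Day4 replicate 1 and 155027493 elsewhere. All libraries after Control were below the lowest Control library, those of MCE1 and MCE2 overlapped each other at the bottom, and those of Day4, Day6 and Day8 overlapped each other in between. In MCE2 it was 11.3-fold lower than in Control (log2 fold change -3.15 ± 0.17 SE, limma adjusted p = 1.65e-10), and in Day8 1.54-fold lower (log2 fold change -0.60 ± 0.17 SE, limma adjusted p = 0.00536). The rise in Day4 versus MCE2 was 2.40 ± 0.17 (SE, limma adjusted p = 1.36e-08).

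Mmp11 (chromosome 10, 75385967 to 75395247, mm9), stromelysin-3, is cut to its active form inside the cell by furin and is known from knockout mice to limit fat tissue. It had 28.6, 33.6 and 39.1 TPM in Control, 3.38, 2.96 and 3.68 in MCE1, 5.97, 6.40 and 6.41 in MCE2, 37.3, 37.7 and 38.1 in Day4, 53.9, 52.8 and 46.6 in Day6, and 146, 150.3 and 147 in Day8. Libraries of MCE1 and MCE2 were all below 7 TPM, those of Day4 lay within the Control range, and those of Day8 were above all others by a wide margin. In MCE1 the mean was 3.34 ± 0.361 TPM, against 33.8 ± 5.26 TPM in Control (SD, n = 3 each; log2 fold change -2.996 ± 0.10 SE, limma adjusted p = 5.49e-13), 10.1-fold lower. In Day8 it was 148 ± 2.32 TPM, 4.38-fold the Control level (log2 fold change 2.11 ± 0.10 SE, limma adjusted p = 9.02e-12). Separate called rises were measured in Day4 versus MCE2 (log2 fold change 2.42 ± 0.10 SE, limma adjusted p = 1.96e-11) and Day8 versus Day6 (log2 fold change 1.52 ± 0.10 SE, limma adjusted p = 1.35e-07), with a smaller one between them in Day6 versus Day4 (0.43). Day4 versus Control was not called (0.17), although it was called under median-ratio scaling (0.31), quantile normalization (0.35) and without Control replicate 3 (0.27).

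Of the MMP genes, 10 lie side by side on chromosome 9 (mm9, 7272514 to 7699585, 427 kb): Mmp13, Mmp12, Mmp1b, Mmp3, Mmp1a, Mmp10, Mmp8, Mmp27, Mmp20 and Mmp7. They include collagenases, stromelysins, macrophage elastase and enamelysin. Of these, 3 (Mmp13, Mmp3 and Mmp27) passed the filter. The promoters of this cluster are shown because they share a letter pattern that the gene names do not carry. Being picked for that pattern, and related to each other, the genes give counts that describe the cluster and test nothing. The pattern is TGANTCA, a looser form of the consensus of AP-1 (Fos and Jun dimers), which has C or G at N. In the 250 bases upstream of the RefSeq starts (GRCm38.p6), TGANTCA occurred in 8 of the 10 cluster genes and in 0 of the other 26 protease and inhibitor genes in the table. It occurred in 6.75% of all 32851 promoter windows, a share of windows and not of genes. Of the 19 genes in the table that passed the filter, 2 held it. Each match is printed below in capitals with 12 bases on either side, on the gene's strand. The Mmp20 match, TGAATCA, has A at N and so is not the consensus.
Mmp13 (chr9:7272467-7272497, plus strand): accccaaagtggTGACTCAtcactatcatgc
Mmp12 (chr9:7347318-7347348, plus strand): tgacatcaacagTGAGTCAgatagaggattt
Mmp1b (chr9:7388101-7388131, minus strand): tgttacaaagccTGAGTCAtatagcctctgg
Mmp3 (chr9:7445764-7445794, plus strand): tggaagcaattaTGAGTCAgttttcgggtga
Mmp1a (chr9:7464056-7464086, plus strand): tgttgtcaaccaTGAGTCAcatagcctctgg
Mmp10 (chr9:7502267-7502297, plus strand): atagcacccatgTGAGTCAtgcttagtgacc
Mmp20 (chr9:7628124-7628154, plus strand): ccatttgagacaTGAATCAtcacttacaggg
Mmp7 (chr9:7692015-7692045, plus strand): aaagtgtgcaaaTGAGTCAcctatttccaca
The Mmp8 and Mmp27 windows held no TGANTCA, from which nothing follows about the factor. The whole 250 bases of the 2 passing genes that hold the match are printed too, with AP-1, TATA box and GC box matches in capitals.
Mmp3 (chr9:7445572-7445821, plus strand): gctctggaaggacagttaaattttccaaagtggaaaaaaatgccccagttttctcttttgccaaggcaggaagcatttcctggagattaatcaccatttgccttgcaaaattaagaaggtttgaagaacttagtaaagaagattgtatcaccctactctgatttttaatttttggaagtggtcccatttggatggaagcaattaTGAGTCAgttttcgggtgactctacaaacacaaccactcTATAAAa
Mmp13 (chr9:7272264-7272513, plus strand): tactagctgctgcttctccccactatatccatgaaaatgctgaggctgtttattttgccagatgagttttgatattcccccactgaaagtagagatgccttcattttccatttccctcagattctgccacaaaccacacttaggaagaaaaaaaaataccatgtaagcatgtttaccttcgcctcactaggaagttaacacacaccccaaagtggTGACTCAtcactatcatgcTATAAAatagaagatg
TATAAA occurred in 12.4% of all windows and in 10 of the 36 genes of the table. TTGCNNAA, the consensus of the C/EBP factors of fat cell formation, occurred in 9.56% of all windows and in 6 of the 36, all of them in the cluster.

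Mmp3 (chromosome 9, 7445822 to 7455974, mm9), stromelysin-1, cuts fibronectin, laminin and proteoglycans and activates other pro-MMPs. It had 17.7, 19.04 and 18.4 TPM in Control, 18.2, 17.1 and 15.3 in MCE1, 4.11, 3.38 and 3.54 in MCE2, 13.5, 13.3 and 13.3 in Day4, 19.4, 15.7 and 15.7 in Day6, and 24.5, 24.6 and 20.7 in Day8. Control and MCE1 overlapped, MCE2 lay far below both, and the Day8 libraries were the highest. The step in MCE2 versus MCE1 was 4.58-fold down (log2 fold change -1.93 ± 0.10 SE, limma adjusted p = 5.02e-10), and Day4 versus MCE2 was 3.63-fold up (log2 fold change 1.62 ± 0.10 SE, limma adjusted p = 3.12e-09). In Day8 versus Control the rise was smaller (log2 fold change 0.32 ± 0.10 SE, limma adjusted p = 0.0102). The Day4 versus Control difference of -0.43 was called, but not under quantile normalization (-0.24). The rise in Day6 versus Day4 (0.32) was not called under quantile normalization (0.29), or without Day4 replicate 1, 2 or 3 (0.31 to 0.32) or Day6 replicate 1 (0.22). It was also lost on the 6 libraries alone (limma adjusted p = 0.091).

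Mmp13 (chromosome 9, 7272514 to 7283333, mm9), collagenase-3, which cuts fibrillar collagen II and I, had 1.23, 1.21 and 1.40 TPM in Control, 0, 0 and 0 in MCE1, 0, 0.498 and 0.272 in MCE2, 2.76, 3.77 and 2.80 in Day4, 4.497, 6.26 and 5.73 in Day6, and 6.36, 6.01 and 7.01 in Day8. It was listed at 0 in all 3 MCE1 libraries and 1 MCE2 library, while every Day4, Day6 and Day8 library was above every Control library. No fold is given against MCE1. On the log2(TPM + 1) scale it fell in MCE1 versus Control by 1.19 (limma adjusted p = 6.68e-06) and rose in Day8 versus Control (log2 fold change 1.71 ± 0.15 SE, limma adjusted p = 4.36e-08), 5.05-fold in the means. The rise in Day6 versus Day4 (0.66) was not called with a pseudocount of 0.1 (0.80).

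Mmp27 (chromosome 9, 7571396 to 7581885, mm9), a little studied member of the cluster, had 0, 0 and 0 TPM in Control, 0.748, 1.04 and 0.513 in MCE1, 0, 0 and 0.332 in MCE2, 2.21, 1.76 and 2.38 in Day4, 1.62, 2.15 and 2.33 in Day6, and 1.48, 0.794 and 0.981 in Day8. It was at 0 in all Control libraries and in 2 of 3 MCE2 libraries, and Day4 libraries reached the highest group mean. On the log2(TPM + 1) scale Day4 versus Control was 1.64 ± 0.17 (SE, limma adjusted p = 2.59e-07), and MCE1 versus Control 0.81 (limma adjusted p = 6.93e-04). The level never passed 3 TPM. Of the cluster genes under the filter, Mmp10 (stromelysin-2) and Mmp1b (a collagenase) were at 0 in all 15 libraries after Control. In Control, Mmp10 had 0.556, 0.747 and 0.447 TPM and Mmp1b 1.31, 0.967 and 0.900 TPM. Mmp1a, a near copy of Mmp1b, reached 0.137 TPM at most, and the authors' counting could have split reads between these copies. Mmp8 reached 0.430 TPM, and Mmp7, Mmp12 and Mmp20 were at 0 in all 18 libraries.

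Mmp19 (chromosome 10, 128227966 to 128237883, mm9), a secreted MMP of basement membrane substrates, had 13.1, 14.3 and 22.5 TPM in Control, 11.6, 15.3 and 17.2 in MCE1, 25.9, 28.3 and 28.3 in MCE2, 106, 21.3 and 27.6 in Day4, 25.5, 79.2 and 31.6 in Day6, and 18.3, 43.6 and 27.1 in Day8. Day4 replicate 1 and Day6 replicate 2 stood far above their group's other libraries. The Day4 versus Control (1.25, limma adjusted p = 0.0379) and Day6 versus Control (1.26, limma adjusted p = 0.0368) differences were called. The first was 0.56 and not called without Day4 replicate 1, and was lost without Control replicate 1 (1.11) or 2 (1.17), without a filter and on the 6 libraries alone (limma adjusted p = 0.0529 and 0.0904). The second was 0.77 and not called without Day6 replicate 2, and was lost without Control replicate 1 (1.12) or 2 (1.17) and without a filter (limma adjusted p = 0.0511). The gene overlaps Tmem198b on the opposite strand (12.3 to 33.6 TPM). Mmp28 (chromosome 11, 83254270 to 83276542, mm9), epilysin, had 10.4, 9.19 and 12.5 TPM in Control, 15.8, 11.9 and 10.8 in MCE1, 13.8, 17.9 and 10.5 in MCE2, 7.34, 13.8 and 12.4 in Day4, 15.9, 10.6 and 17.1 in Day6, and 11.9, 10.9 and 19.6 in Day8. Each group overlapped Control, 0 of its 9 comparisons were called, and the limma F test gave an adjusted p = 0.542. Mmp28 overlaps 1700020L24Rik on the opposite strand (9.05 to 18.6 TPM).

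**Figure D3:**
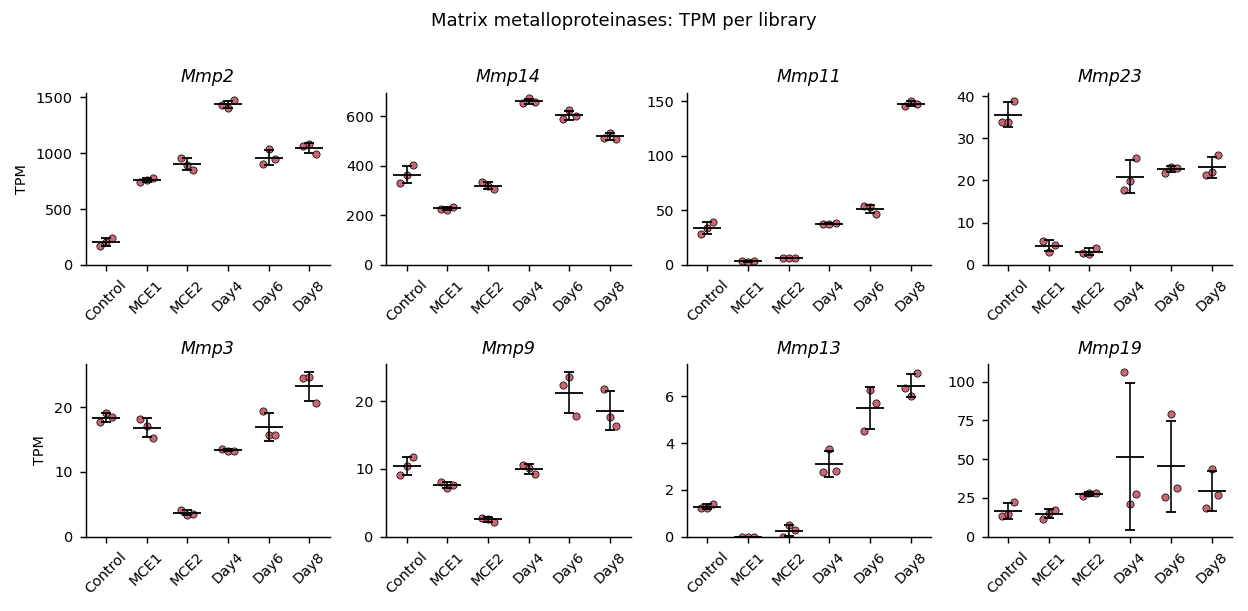
TPM of 8 MMP genes in each of 18 libraries (points), by group, with the group mean (wide line) and SD (bars, n = 3); each panel has its own vertical axis from 0. Mmp2 is highest in Day4, Mmp11 in Day8, Mmp3, Mmp9 and Mmp23 are lowest in MCE2, and Mmp19 has 1 library far above the others in Day4 and in Day6.

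Of the 11 ADAMTS proteases that passed, 6 were higher, 3 lower and 2 not called in MCE1 versus Control, and 8 were higher, 0 lower and 3 not called in Day8 versus Control. Of all genes tested, 22.0% were higher and 29.4% lower in MCE1, and 31.7% higher and 39.7% lower in Day8. Of the 7 proteoglycanases, which cut versican or aggrecan, 5 passed the filter (Adamts1, Adamts4, Adamts5, Adamts9 and Adamts15), and Adamts8 and Adamts20 did not. Of the 5 that passed, 4 rose in MCE1 and 5 were higher in Day8 versus Control, against the same 22.0% and 31.7% of all genes called higher. Adamts15, under 1 TPM in Control, passed only through the later groups where it is high, so its higher calls are partly set by the filter. The counts describe these 5 genes and not the class. Adamts1 (chromosome 16, 85794073 to 85803358, mm9), a protease of versican and aggrecan, had 72.0, 70.1 and 72.5 TPM in Control, 533, 554 and 519 in MCE1, 425, 475 and 454 in MCE2, 483, 448 and 487 in Day4, 269, 378 and 301 in Day6, and 177, 192 and 162 in Day8. Every later library was above every Control library, MCE2 and Day4 overlapped, and Day8 was the lowest group after Control. In MCE1 it averaged 535 ± 17.8 TPM, against 71.6 ± 1.25 TPM in Control (SD, n = 3 each; log2 fold change 2.88 ± 0.09 SE, limma adjusted p = 6.40e-13), 7.48-fold the Control level. Adamts1 fell in Day6 versus Day4 (log2 fold change -0.59 ± 0.09 SE, limma adjusted p = 2.08e-04) and in Day8 versus Day6 (log2 fold change -0.82 ± 0.09 SE, limma adjusted p = 1.96e-05), and in Day8 was still 2.47-fold the Control level. The fall in MCE2 versus MCE1 (-0.25, limma adjusted p = 0.0437) was lost under median-ratio scaling (-0.17), quantile normalization (-0.25) or no filter, and without any of MCE1 replicates 1, 2 or 3 or MCE2 replicates 1 or 3 (-0.27 to -0.20).

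Adamts9 (chromosome 6, 92722694 to 92893528, mm9), a versican protease that also works in the secretory pathway, had 6.59, 6.72 and 7.05 TPM in Control, 65.4, 66.7 and 61.4 in MCE1, 39.9, 48.2 and 46.6 in MCE2, 28.5, 26.9 and 30.9 in Day4, 30.6, 40.8 and 31.1 in Day6, and 34.3, 36.7 and 29.2 in Day8. MCE1 was above all other groups, Control was below all others, and Day4, Day6 and Day8 overlapped each other. In MCE1 it averaged 64.5 ± 2.77 TPM, against 6.79 ± 0.237 TPM in Control (SD, n = 3 each; log2 fold change 3.07 ± 0.11 SE, limma adjusted p = 2.08e-12). It fell in MCE2 versus MCE1 (-0.52, limma adjusted p = 0.00124) and was the 1 gene lower in Day4 versus MCE2 (-0.62, limma adjusted p = 1.96e-04). In Day8 it was 4.92-fold the Control level (log2 fold change 2.14 ± 0.11 SE, limma adjusted p = 4.26e-11).

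The upstream 250 bases of Adamts1 and Adamts9, the proteoglycanases with the highest MCE1 levels, are printed from the same RefSeq table (GRCm38.p6), with GC box, TATA box and AP-1 matches on either strand in capitals.
Adamts1 (chr16:85803114-85803363, minus strand): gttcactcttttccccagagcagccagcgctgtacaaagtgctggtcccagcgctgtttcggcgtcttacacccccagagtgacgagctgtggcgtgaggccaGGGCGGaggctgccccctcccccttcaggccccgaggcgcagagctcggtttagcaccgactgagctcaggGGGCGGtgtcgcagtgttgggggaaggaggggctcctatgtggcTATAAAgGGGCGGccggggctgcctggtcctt
Adamts9 (chr6:92943535-92943784, minus strand): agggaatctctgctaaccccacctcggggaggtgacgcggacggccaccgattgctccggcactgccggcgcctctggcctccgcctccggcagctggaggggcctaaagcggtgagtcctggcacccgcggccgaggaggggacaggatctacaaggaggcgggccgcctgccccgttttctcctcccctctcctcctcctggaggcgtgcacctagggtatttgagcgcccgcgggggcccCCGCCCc
The Adamts1 window held 3 GC boxes and 1 TATA box, and the Adamts9 window held 1 GC box and no TATA box. Neither held an AP-1 match. The core of the cAMP response element, spelled TGACGT, was searched too, because IBMX raises cAMP. It occurred in 6.47% of all windows and in 2 of the 36 genes (Adamts3 and Timp1).

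Adamts15 (chromosome 9, 30706740 to 30730037, mm9), another versican and aggrecan protease, was near 0 in Control. It had 0.115, 0.299 and 0.131 TPM in Control, 17.3, 17.4 and 17.6 in MCE1, 50.8, 48.1 and 44.9 in MCE2, 45.3, 48.1 and 46.7 in Day4, 23.5, 34.7 and 26.3 in Day6, and 20.3, 21.6 and 17.6 in Day8. Control libraries were all below 0.3 TPM and all others were above 17 TPM, with the highest in MCE2 and Day4, which overlapped. On the log2(TPM + 1) scale MCE1 versus Control was 3.97 ± 0.12 and MCE2 versus Control 5.37 ± 0.12 (SE, limma adjusted p = 2.77e-13 and 3.33e-15). It fell in Day6 versus Day4 (-0.73, limma adjusted p = 2.72e-04) and in Day8 versus Day6 (-0.47, limma adjusted p = 0.00967). The second was not called with a pseudocount of 0.1 (-0.49) or on the 6 libraries alone (limma adjusted p = 0.117). Its neighbour Adamts8, 20.11 kb away, never passed 0.168 TPM.

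Adamts4 and Adamts5 are the main aggrecanases of cartilage. Adamts5 (chromosome 16, 85858402 to 85901370, mm9), 55.04 kb from Adamts1, had 21.1, 18.4 and 19.4 TPM in Control, 18.4, 18.8 and 18.9 in MCE1, 10.4, 11.5 and 12.5 in MCE2, 25.8, 22.1 and 24.1 in Day4, 31.2, 35.7 and 29.8 in Day6, and 36.9, 36.1 and 33.2 in Day8. Control and MCE1 overlapped, MCE2 was below every other group, and Day6 and Day8 were above the rest and overlapped each other. MCE1 versus Control was not called (-0.06, limma adjusted p = 0.595), MCE2 versus Control was lower (log2 fold change -0.73 ± 0.09 SE, limma adjusted p = 2.06e-06) and Day8 versus Control was higher (log2 fold change 0.82 ± 0.09 SE, limma adjusted p = 3.55e-07). Day4 versus Control (0.28) was called but not without Day4 replicate 1 (0.23). Adamts4 (chromosome 1, 173180260 to 173192398, mm9) had 6.996, 7.09 and 8.06 TPM in Control, 11.95, 10.6 and 12.5 in MCE1, 12.2, 13.8 and 14.7 in MCE2, 16.1, 14.5 and 14.9 in Day4, 14.4, 17.5 and 15.3 in Day6, and 13.1, 12.4 and 11.7 in Day8. All later libraries were above all Control libraries, and Day4 and Day6 had the highest means and overlapped each other. It rose in MCE1 (log2 fold change 0.59 ± 0.10 SE, limma adjusted p = 9.57e-05) and Day6 (log2 fold change 0.996 ± 0.10 SE, limma adjusted p = 1.76e-07). Its fall in Day8 versus Day6 (-0.32) was lost without Day6 replicate 2 (-0.25) or 3 (-0.34), or Day8 replicate 2 (-0.32) or 3 (-0.28). On the 6 libraries alone it was lost too (limma adjusted p = 0.14).

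The procollagen N-proteinases Adamts2 and Adamts14 remove the N-terminal propeptides of fibrillar collagens, and the third of them, Adamts3, was at 0 in all libraries. Adamts2 (chromosome 11, 50415587 to 50621075, mm9) had 14.6, 16.4 and 17.2 TPM in Control, 126, 122 and 119.6 in MCE1, 68.7, 68.9 and 67.4 in MCE2, 65.6, 61.1 and 68.0 in Day4, 53.5, 65.8 and 54.7 in Day6, and 58.6, 55.2 and 49.9 in Day8. MCE1 was above all other groups, Control was below all others, and Day4, Day6 and Day8 overlapped from one to the next. In MCE1 the mean was 7.64-fold that of Control (log2 fold change 2.86 ± 0.08 SE, limma adjusted p = 1.60e-13), and in Day8 3.40-fold (log2 fold change 1.71 ± 0.08 SE, limma adjusted p = 1.68e-11). The fall in MCE2 versus MCE1 was -0.83 (limma adjusted p = 5.33e-07). Adamts14 (chromosome 10, 60659860 to 60736167, mm9) had 6.11, 6.71 and 7.51 TPM in Control, 7.56, 8.04 and 7.50 in MCE1, 14.99, 12.6 and 11.3 in MCE2, 17.1, 15.2 and 19.03 in Day4, 12.2, 16.1 and 13.3 in Day6, and 13.6, 12.4 and 10.2 in Day8. MCE1 overlapped Control and was not called against it (0.17), but was under quantile normalization (0.35), while MCE2 and all later libraries lay above Control. Adamts14 rose in MCE2 versus Control (log2 fold change 0.84 ± 0.13 SE, limma adjusted p = 3.96e-05) and most in Day4 versus Control (log2 fold change 1.22 ± 0.13 SE, limma adjusted p = 5.37e-07). The step in Day4 versus MCE2 (0.38) was lost without MCE2 replicate 2 (0.37) or 3 (0.29), or Day4 replicate 1 (0.38) or 3 (0.30). On the 6 libraries alone it was lost too (limma adjusted p = 0.0542).

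Adamts12 and Adamts7 both cut cartilage oligomeric matrix protein. Adamts12 (chromosome 15, 10994528 to 11278987, mm9) had 6.59, 7.36 and 8.16 TPM in Control, 41.3, 42.6 and 41.9 in MCE1, 99.8, 113 and 97.8 in MCE2, 145, 123 and 157 in Day4, 83.3, 135 and 84.8 in Day6, and 51.7, 62.5 and 45.03 in Day8. Control was below all other groups, with MCE1 next, and the highest group mean was in Day4, whose libraries overlapped those of Day6. In Day4 it averaged 142 ± 17.3 TPM, against 7.37 ± 0.783 TPM in Control (SD, n = 3 each; log2 fold change 4.09 ± 0.16 SE, limma adjusted p = 2.29e-12), 19.2-fold. The rise in Day4 versus MCE2 (0.44) was lost without MCE2 replicate 1 (0.42) or 3 (0.40), or Day4 replicate 1 (0.42) or 3 (0.37). The fall in Day6 versus Day4 (-0.51) was lost without Day4 replicate 1 (-0.49) or 3 (-0.43), or Day6 replicate 1 (-0.39) or 3 (-0.41). On the 6 libraries alone this fall was lost too (limma adjusted p = 0.11). Day8 versus Day6 fell by 0.89 (limma adjusted p = 9.56e-04).

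Adamts7 (chromosome 9, 90057816 to 90094940, mm9) had 6.98, 5.12 and 5.53 TPM in Control, 1.99, 1.95 and 1.85 in MCE1, 2.02, 3.999 and 2.98 in MCE2, 3.60, 3.32 and 4.42 in Day4, 3.60, 3.90 and 5.18 in Day6, and 6.45, 7.46 and 6.57 in Day8. MCE1 libraries were the lowest and those of Day8 were above all of MCE1, MCE2, Day4 and Day6. It fell in MCE1 versus Control (log2 fold change -1.22 ± 0.17 SE, limma adjusted p = 1.65e-05) and was not called in Day8 versus Control (0.19). The lower calls in Day4 and Day6 versus Control (-0.52 and -0.40) and the higher call in Day8 versus Day6 (0.59) did not all stand. The first was lost without Control replicate 1 (-0.41) or Day4 replicate 2 (-0.45). The second was lost without Control replicate 1 (-0.29) or 3 (-0.43) or Day6 replicate 1 (-0.31) or 2 (-0.36), with median-ratio scaling (-0.27) and with a pseudocount of 0.1 (-0.47). It was also lost without a filter and on the 6 libraries alone (limma adjusted p = 0.0602 and 0.0649). The last was lost without Day6 replicate 1 (0.51) or 2 (0.55) or Day8 replicate 2 (0.53), and on the 6 libraries alone (limma adjusted p = 0.0645).

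Adamts10 (chromosome 17, 33661030 to 33690727, mm9), which acts on fibrillin microfibrils, had 6.01, 4.81 and 6.30 TPM in Control, 3.38, 2.76 and 4.44 in MCE1, 3.75, 4.37 and 5.16 in MCE2, 4.71, 4.21 and 6.92 in Day4, 5.49, 5.499 and 5.33 in Day6, and 4.49, 4.10 and 6.52 in Day8. Its MCE1 libraries lay below all Control libraries and all other groups overlapped Control. The 1 called comparison, MCE1 versus Control (-0.58, limma adjusted p = 0.0163), was lost under quantile normalization (-0.34) and without Control replicate 1 (-0.54) or 3 (-0.51) or MCE1 replicate 2 (-0.45). Adamts6 (chromosome 13, 105077915 to 105286775, mm9), a relative of Adamts10, had group means of 2.06 TPM in Control, 0.625 in MCE2 and 2.71 in Day8. It fell in MCE2 versus Control (log2 fold change -0.91 ± 0.19 SE, limma adjusted p = 6.72e-04), and Day8 versus Control was not called (0.27). Its lower call in MCE1 (-0.66) was lost under quantile normalization (-0.41). Its lower call in Day4 versus Control (-0.49) was lost under median-ratio scaling (-0.40) and without Control replicate 1 (-0.38) or 2 (-0.51) or Day4 replicate 3 (-0.34). On the 6 libraries alone that call was lost too (limma adjusted p = 0.0502).

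**Figure D4:**
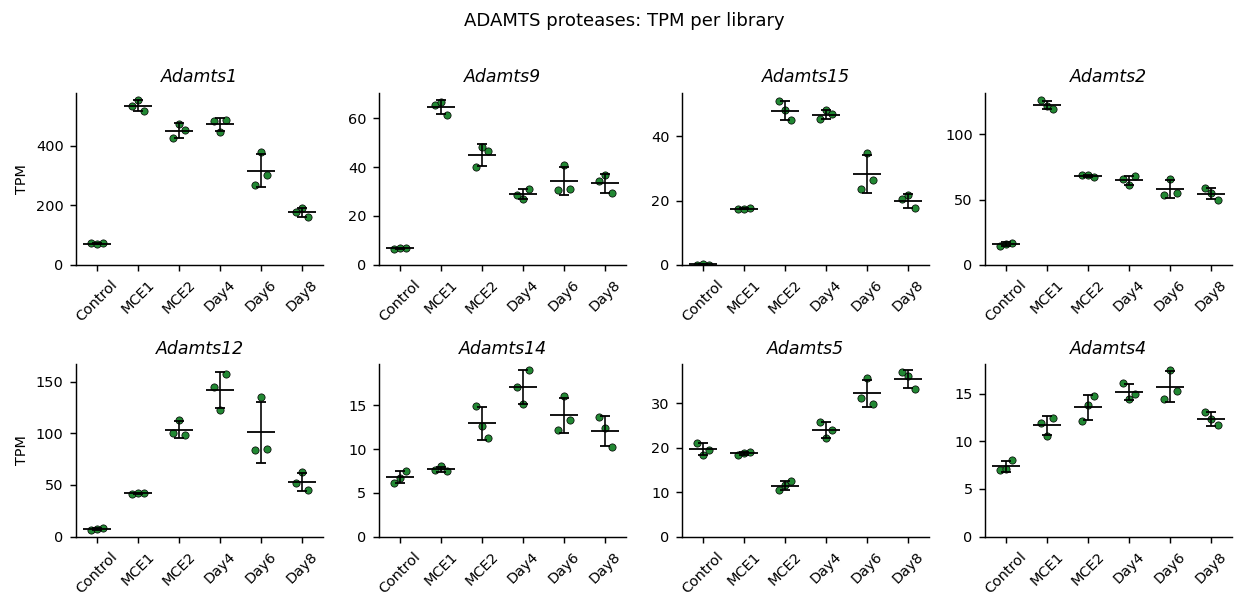
TPM of 8 ADAMTS genes in each of 18 libraries (points), by group, with the group mean (wide line) and SD (bars, n = 3); each panel has its own vertical axis from 0. Adamts1, Adamts9 and Adamts2 are highest in MCE1, Adamts15 in MCE2, Adamts12 and Adamts14 in Day4, Adamts4 in Day6, and Adamts5 is lowest in MCE2 and highest in Day8.

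ADAMTS-like proteins have the repeats but no protease domain, and several bind fibrillin microfibrils. Adamtsl4 (chromosome 3, 95480125 to 95491840, mm9) had 9.15, 8.55 and 12.4 TPM in Control, 24.5, 19.7 and 22.4 in MCE1, 14.4, 19 and 19.8 in MCE2, 20.7, 16.6 and 20.4 in Day4, 9.16, 9.29 and 7.48 in Day6, and 9.21, 5.49 and 9.66 in Day8. The libraries of MCE1, MCE2 and Day4 lay above those of Control, Day6 and Day8. It rose in MCE1 versus Control (log2 fold change 1.08 ± 0.19 SE, limma adjusted p = 1.37e-04) and fell in Day6 versus Day4 (log2 fold change -1.07 ± 0.19 SE, limma adjusted p = 5.13e-04), and Day8 versus Control was not called (-0.29). Adamtsl5 (chromosome 10, 79802538 to 79811193, mm9) had 9.38, 9.33 and 11.2 TPM in Control, 4.67, 5.32 and 3.34 in MCE1, 3.43, 5.82 and 3.03 in MCE2, 6.61, 5.496 and 6.13 in Day4, 4.39, 6.29 and 5.63 in Day6, and 6.50, 9.53 and 9.46 in Day8. Control libraries were above those of MCE1, MCE2, Day4 and Day6, while Day8 overlapped Control. It fell in MCE1 versus Control (log2 fold change -1.02 ± 0.20 SE, limma adjusted p = 4.59e-04). Its rise in Day4 versus MCE2 (0.51) was lost under quantile normalization (0.29), without a filter, and without MCE2 replicate 1 (0.43) or 3 (0.36) or any 1 Day4 library (0.46 to 0.57). On the 6 libraries alone that rise was lost too (limma adjusted p = 0.089). Adamtsl2 (chromosome 2, 26934899 to 26964501, mm9) was at 0 in 2 Control libraries and had 3.40, 3.73 and 3.92 TPM in Day4, the highest values, against 0.758, 0.707 and 0.605 TPM in MCE2. It rose in Day4 versus MCE2 (log2 fold change 1.47 ± 0.14 SE, limma adjusted p = 2.47e-07) and fell in Day6 versus Day4 (log2 fold change -1.34 ± 0.14 SE, limma adjusted p = 2.93e-06).

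Of the 51 genes, 10 were at 0 TPM in every library: Mmp7, Mmp12, Mmp16, Mmp20, Mmp21, Adamts3, Adamts13, Adamts18, Adamts19 and Adamts20. A further 13 had a value above 0 without reaching 1 TPM in 3 libraries. Beside Mmp1a, Mmp1b, Mmp8, Mmp10 and Adamts8, these were Adamts16 (at most 0.839 TPM), Mmp15 (0.650), Adamtsl3 (0.602), Mmp17 (0.468), Adamtsl1 (0.274), Mmp24 (0.222), Adamts17 (0.0946) and Mmp25 (0.0840). The genes nearest the filter on its upper side were Adamtsl2 and Mmp27, which reached 1 TPM in 7 and 8 libraries, and Mmp1b was nearest below it, with 1 library. TPM keep no read depth, so a value of 0 sets no limit on the true level.

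Summed over a family, TPM give the makeup of the transcripts, without a test. The 23 MMP genes summed to 698 ± 85.7 TPM in Control, 1047 ± 20.5 in MCE1, 1279 ± 65.2 in MCE2, 2249 ± 40.5 in Day4, 1745 ± 113 in Day6 and 1829.5 ± 58.8 in Day8 (SD, n = 3 each). Mmp2 and Mmp14 held 81.5 ± 0.468% of that sum in Control, 95.4 ± 0.363% in MCE2 and 85.5 ± 0.626% in Day8. The 19 ADAMTS genes summed to 150.0 ± 4.09 TPM in Control, 826 ± 20.1 in MCE1, 821 ± 48.2 in Day4 and 412 ± 35.1 in Day8, with Adamts1 at 47.7 ± 0.562%, 64.8 ± 0.654%, 57.6 ± 0.852% and 42.9 ± 0.675% of it in the same 4 groups. These sums follow their largest members.

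The 4 TIMP genes summed to 1164 ± 14.5 TPM in Control, 643 ± 6.11 in MCE1, 356 ± 21.9 in MCE2, 439 ± 23.5 in Day4, 349 ± 18.97 in Day6 and 292 ± 12.8 in Day8. In MCE2 Timp1 held 14.2 ± 1.52% and Timp2 85.0 ± 1.69% of it, whereas in Control the shares were 48.5 ± 2.57% and 48.1 ± 2.39%. The ratio of the MMP sum to the TIMP sum was 0.600 ± 0.0791 in Control, 1.63 ± 0.0193 in MCE1, 3.60 ± 0.131 in MCE2, 5.13 ± 0.214 in Day4, 5.01 ± 0.0929 in Day6 and 6.27 ± 0.124 in Day8. It is a ratio of transcript levels and does not measure protease activity, since MMPs are made as proenzymes and secreted.

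**Figure D5:**
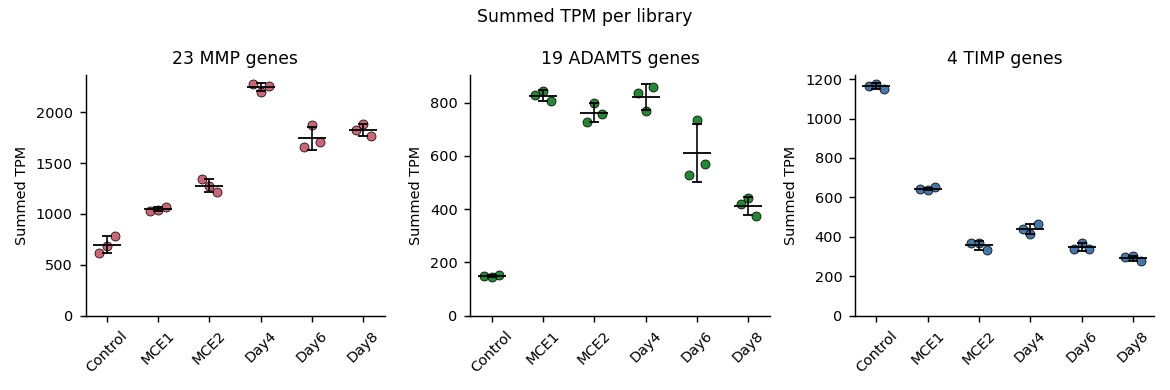
Summed TPM of the 23 MMP, 19 ADAMTS and 4 TIMP genes in each of 18 libraries (points), by group, with the group mean (wide line) and SD (bars, n = 3); each panel has its own vertical axis from 0. The MMP sum is highest in Day4, the ADAMTS sum lies between 728 and 860.2 TPM in MCE1, MCE2 and Day4 against at most 154 in Control, and the TIMP sum is highest in Control.

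Proteases and inhibitors outside these families act on the same matrix, and lists of them written for this purpose gave the following counts in Day8 versus Control, where 31.7% of all genes were higher, 39.7% lower and the median was -0.11. Plasminogen activation, which yields a broad protease that also activates pro-MMPs, had 0 higher, 6 lower and 2 not called of 8 measured genes (12 listed, median -1.17). The urokinase receptor Plaur had 4.80 TPM in Day8 against 108 TPM in Control (log2 fold change -4.23 ± 0.14 SE, limma adjusted p = 2.01e-13), and the tissue-type activator Plat had 22.7 TPM in Day8 against 67.1 TPM in Control (log2 fold change -1.53 ± 0.11 SE, limma adjusted p = 4.01e-09). The procollagen C-proteinases and their enhancers had 0 higher and 4 lower of 4 (5 listed, median -1.30). The smallest of these falls was that of the C-proteinase Bmp1, with 99.2 TPM in Day8 against 114 TPM in Control (log2 fold change -0.20 ± 0.08 SE, limma adjusted p = 0.0451). Calls on these lists were not checked under other settings. The enhancer Pcolce2 had 3.89 TPM in Day8 against 17.3 TPM in Control (log2 fold change -1.90 ± 0.17 SE, limma adjusted p = 6.38e-08).

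Membrane ADAM proteases were divided, with 4 higher, 3 lower and 1 not called of 8 (9 listed, median 0.15). Adam8 had 1.54 TPM in Day8 against 16.2 TPM in Control (log2 fold change -2.75 ± 0.17 SE, limma adjusted p = 3.26e-10) and Adam15 had 198 TPM in Day8 against 95.1 TPM in Control (log2 fold change 1.04 ± 0.06 SE, limma adjusted p = 2.09e-10). Cathepsins and cystatins had 9 higher, 2 lower and 1 not called of 12 (15 listed, median 0.75), among them the lysosomal Ctsf with 18.3 TPM in Day8 against 2.84 TPM in Control (log2 fold change 2.34 ± 0.15 SE, limma adjusted p = 6.61e-10). Other matrix proteases and activators had 3 higher, 4 lower and 1 not called of 8 (15 listed, median -0.10), with Prss23 at 18.9 TPM in Day8 against 119 TPM in Control (log2 fold change -2.60 ± 0.09 SE, limma adjusted p = 4.90e-13).

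The list of other inhibitors and clearance proteins had 3 higher, 3 lower and 2 not called of 8 (14 listed, median -0.19). Not all genes on this list are inhibitors, and the 3 higher were Reck, Sparc and Bsg. Reck, a membrane-anchored inhibitor of MMP2, MMP9 and MMP14, had 15.3 TPM in Day8 against 6.20 TPM in Control (log2 fold change 1.18 ± 0.10 SE, limma adjusted p = 1.41e-08). Thbs1, a matrix protein that binds pro-MMPs, had 36.2 TPM in Day8 against 158 TPM in Control (log2 fold change -2.11 ± 0.21 SE, limma adjusted p = 2.43e-07). Bsg (basigin), a surface protein known to induce MMPs, had 5073 TPM in Day8 against 711 TPM in Control (log2 fold change 2.83 ± 0.05 SE, limma adjusted p = 1.74e-16). Substrates of these proteases had 13 higher, 4 lower and 0 not called of 17 (22 listed, median 1.42), with Lum (lumican) at 125 TPM in Day8 against 0.120 TPM in Control (log2 fold change 6.82 ± 0.12 SE, limma adjusted p = 1.06e-16) and Col3a1 at 4831 TPM in Day8 against 453 TPM in Control (log2 fold change 3.40 ± 0.10 SE, limma adjusted p = 8.34e-14). In MCE1 versus Control the substrate list had 11 higher, 4 lower and 2 not called (median 1.20), and the plasminogen list 1 higher, 6 lower and 1 not called (median -1.61), where 22.0% of all genes were higher, 29.4% lower and the median was -0.06.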

How the data were processed

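Polyadenylated RNA from 3T3-L1 cells was sequenced in 18 libraries, 3 in each of 6 groups taken from the sample titles. The authors deposited a table of TPM by gene for each library, with mm9 positions. Per the submitters' processing notes, the tools were FastQC, cutadapt, HISAT2 and StringTie, with no versions given. The annotation, the strand setting and any gene filter are not given in the sources used here. Read depth is unknown, since TPM keep none, and TPM totals per library were 869497 to 880273, and scaling within a library ties genes to each other. Of 25209 gene names, 12 were at another locus in Control replicate 1 and were left out, none of them a protease or inhibitor gene described here. Replicates had Pearson's r of 0.976 to 0.991 on log2(TPM + 1) and libraries of different groups 0.811 to 0.976.

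The fit took the 12695 genes that reached 1 TPM in 3 or more libraries. It used log2(TPM + 1) and limma 3.58.1 (R 4.3.3), a mean for every group, trend and robust moderation, 12 residual and a median of 3.18 prior degrees of freedom. Every later group was set against Control and every stage against the preceding one, 9 comparisons in all, 2-sided, with Benjamini-Hochberg adjustment over all genes and a call at an adjusted p under 0.05. Fold changes on the log2(TPM + 1) scale understate low genes. Folds in the text are ratios of mean TPM. Genes with a group mean of at least 5 TPM were given in every library, and from each of 7 pathway lists up to 4 called genes with the largest Day8 versus Control change could be named. Mmp27, Mmp10 and Mmp1b were given by library too, and Adamtsl2 in 2 groups. The members and lists were chosen with earlier results of these data known. The fit was tested on simulated data. Alternatives were a pseudocount of 0.1, no filter, a filter of 5 TPM, median-ratio scaling, quantile normalization, the 6 libraries of a comparison alone, the replicate number as a block, a log2 fold change of at least 1, and leaving out each library. Promoter windows came from a RefSeq table (GRCm38.p6) that held 36 of the 51 genes, 19 of the 28 that passed. Python 3.11.15, pandas 2.3.3, numpy 2.4.6 and matplotlib 3.10.9 were used.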

Additional observations from a re-analysis of the deposited data

How the results depend on the processing

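The counts of genes called stayed within 1.5 times under a pseudocount of 0.1, no filter, a filter of 5 TPM, both scalings, the replicate block and the omission of each library. Without 1 library they ranged over 21 to 23 in MCE1, 23 to 24 in MCE2, 21 to 25 in Day4, 21 to 23 in Day6 and 21 throughout in Day8 versus Control, 15 to 17 in MCE2 versus MCE1, 13 to 17 in Day4 versus MCE2, 12 to 15 in Day6 versus Day4 and 9 to 13 in Day8 versus Day6. Requiring a log2 fold change of at least 1 left 14 genes in MCE1, 14 in MCE2, 13 in Day4, 13 in Day6 and 14 in Day8 versus Control, 6 in MCE2 versus MCE1, 10 in Day4 versus MCE2, 5 in Day6 versus Day4 and 2 in Day8 versus Day6. Fitted on its 6 libraries alone, Day8 versus Day6 called 4 genes in place of 12. Of 175 calls, 89 stayed the same under every setting that tested them. Requiring a log2 fold change of at least 1 removed 84, and fits on the 6 libraries alone lost 17. At least 1 omission of a library lost 20. A single call, 1 of the 175, reversed: Mmp14 in MCE2 versus Control (0.014 under median-ratio scaling, -0.19 as reported). The cause was not tested. Median-ratio scaling moved the median log2 fold change of all genes by 0.087 in MCE1, 0.166 in MCE2, 0.127 in Day4, 0.129 in Day6 and 0.111 in Day8 versus Control.

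The replicate numbers did not pair the libraries: over 45 same-number pairs the correlation of deviations was -0.0742 to 0.0927, and 8 of 18 libraries correlated best with their own number. With the number as a replicate block, 23 genes were called in MCE1, 24 in MCE2, 23 in Day4, 21 in Day6 and 21 in Day8 versus Control, and 26 by the F test. Under the block, Mmp19 was no longer called in Day4 and Day6 versus Control (limma adjusted p = 0.0533 and 0.0517), nor Adamts7 in Day6 versus Control (0.0580), and the other calls among the 28 genes held.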
